A study of Mus musculus with 36 samples.

Results

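Windows of 100 kb that hold no annotated gene made up 3599 of the 23992 autosomal windows with at least 1 lesion position, or 15.0%, and covered 359.9 Mb of the mouse genome. They were found by cutting each autosome of GRCm38 into windows from its first base and keeping those that overlapped none of the 47042 autosomal RefSeq genes of any biotype, pseudogenes and noncoding RNA genes included. A further 485 gene-free windows held no position in any library and were left out. The gene-free windows formed 1792 runs of neighbouring windows: 982 stood alone, 668 runs held 2 to 4 windows (1700 windows) and 142 runs held 5 or more (917 windows).

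The series profiled 2 kinds of DNA lesion at single-nucleotide resolution in 24-month-old male C57BL/6J mice, an inbred strain, without any treatment. Single-strand breaks (SSBs) were mapped by SSiNGLe and abasic (AP) sites by SSiNGLe-AP. Both assays were run on DNA of the same samples from 6 tissues: brain, heart, liver, motile sperm, bone marrow freed of red cells, and peripheral blood mononuclear cells (PBMCs). According to the labels 2 mice gave all tissues, so each tissue and assay had 2 libraries and the 24 libraries came from 2 animals. The p-values given over tissues therefore speak of these tissues and not of further animals, and no younger mice were analysed here. Sperm DNA was purified with another kit than that of the other tissues, so tissue and kit cannot be told apart for sperm.

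An SSB is a gap in 1 strand of the double helix, and an AP site is a sugar that has lost its base. Both arise spontaneously and as intermediates of base excision repair, in which a glycosylase takes out a damaged base and an endonuclease cuts the strand beside it. Stretches of the genome without genes, the longest of which are called gene deserts, lack transcription units and are in general rich in A and T, packed in heterochromatin and copied late in S phase. None of these 3 features was measured here.

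Few bases inside these windows can be shown. The 3 stretches below are the only parts of the RefSeq promoter sequences (GRCm38.p6) that reached past a window border into a gene-free window, and they show what a lesion position is at the level of the nucleotide. All are written on the plus strand, with capitals at each base where at least 1 library had a lesion position on either strand. The stretch beside Gm34768, chr2:11899839-11900000, is 162 bases long, 45.7% G and C, and holds 1 SSB position. That beside Slc7a1, the gene of a cationic amino acid transporter, chr5:148400001-148400154, is 154 bases long, 51.9% G and C, and holds 2 AP positions. The 188 bases beside Il12b, which encodes a subunit of interleukins 12 and 23, chr11:44399813-44400000, are 45.2% G and C and hold 1 SSB and 1 AP position.
Gm34768: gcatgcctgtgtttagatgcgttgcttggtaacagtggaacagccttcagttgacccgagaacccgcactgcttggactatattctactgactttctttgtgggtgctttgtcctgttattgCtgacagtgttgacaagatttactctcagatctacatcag
Slc7a1: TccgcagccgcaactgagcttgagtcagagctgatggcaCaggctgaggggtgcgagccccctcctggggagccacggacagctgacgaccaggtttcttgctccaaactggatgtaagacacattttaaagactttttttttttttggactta
Il12b: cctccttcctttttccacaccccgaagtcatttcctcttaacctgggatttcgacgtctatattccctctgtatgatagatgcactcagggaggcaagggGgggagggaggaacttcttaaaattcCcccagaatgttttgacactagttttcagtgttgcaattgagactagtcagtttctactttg
The windows that these stretches open into differed in density. The Gm34768 window, a single one, had an SSB density of 15.9 ± 4.23 LPM (lesion positions per window and 1000000 positions of the library; SD, n = 12 libraries), the Slc7a1 window, also single, 50.8 ± 10.1, and the Il12b window, in a run of 2 windows, 52.9 ± 7.55.

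Each library listed between 225011 and 1041983 positions, with a median of 410489 in the SSB libraries and 739741 in the AP libraries. A position was counted once whatever its read count, and density, in LPM, is the number of positions in a 100 kb window per 1000000 positions of the library, or its mean over windows. Positions in gene-free windows numbered 18273 to 90804 per SSB library and 38152 to 78737 per AP library. The median gene-free window held 4 to 22 positions in an SSB library and 9 to 18 in an AP library, so single windows were measured coarsely and means over many windows were precise. The 95% Wilson interval of the share of a library in gene-free windows ran, for example, from 6.98% to 7.12% in the first bone marrow SSB library. Such binomial intervals cover counting error only.

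Gene-free windows carried fewer lesions of both kinds than windows with genes, in each of the 24 libraries. Their SSB density was 23.7 ± 1.95 LPM (SD, n = 12) against 44.0 ± 0.322 in gene-containing windows, and their AP density was 23.7 ± 1.44 against 44.0 ± 0.294. Gene-free windows took 8.53% ± 0.703 of the SSB positions and 8.53% ± 0.518 of the AP positions. The log2 ratio of the densities ran over the SSB libraries from -1.19 through a median of -0.90 to -0.70, and over the AP libraries from -1.03 through -0.93 to -0.68. The mean ratio was -0.90 for SSBs, or 1.86-fold lower, and -0.89 for AP sites, 1.86-fold lower as well. Each differed from 0 over the 6 tissue means (two-sided exact sign-flip test, p = 0.03125, the smallest it allows; adjusted p = 0.0375 over 6 tests). The difference between the assays was -0.0012 on the log2 scale (exact p = 1).

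**Figure D1:**
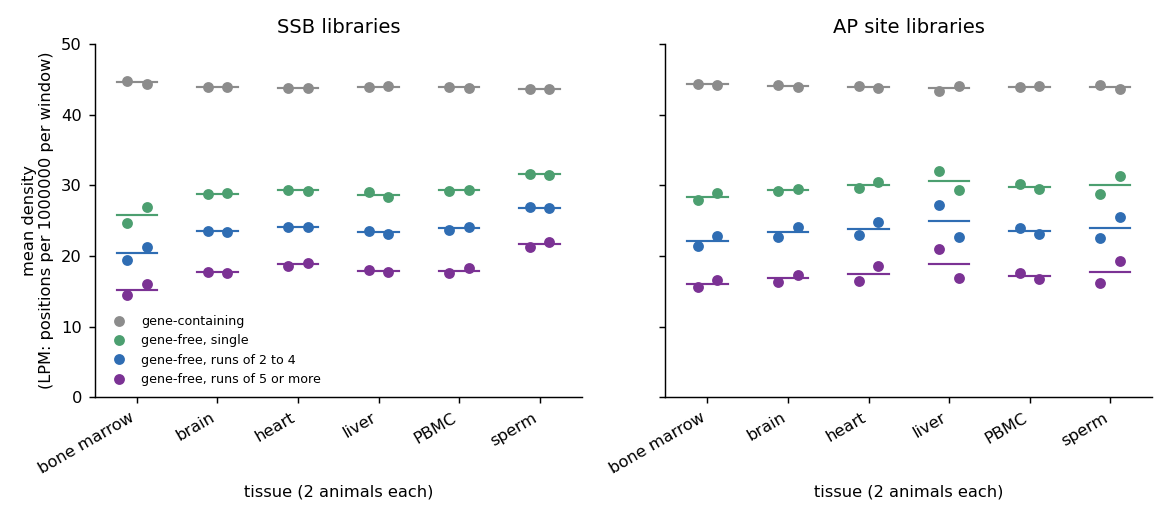
Mean density in LPM (vertical axis) for each library, by tissue (horizontal axis), with SSB libraries in the left panel and AP site libraries in the right. Each point is 1 library, each short line the mean of 2, and colours give gene-containing windows (grey) and gene-free windows that stood alone (green), in runs of 2 to 4 (blue) and in runs of 5 or more (purple); the grey points near 44.0 lie above all others in every library, and the 3 gene-free classes keep their order throughout.

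The deficit was present on each of the 19 autosomes. In all 456 combinations of an autosome and a library the ratio was below 0. Chromosome 7, where 6.67% of the windows were gene-free, had the smallest mean SSB deficit, at -0.47 on the log2 scale, and chromosome 17, with 12.7% gene-free, the largest, at -1.09. The distributions overlapped. Summed over 24 libraries the median gene-free window held 284 positions and the median gene-containing window 622, and 359 gene-free windows (9.97%) lay above the latter value. At the low end, 307 gene-free windows (8.53%) held less than 25% of the median of all windows, against 478 gene-containing windows (2.34%). Mappability was not measured, and its part in the low windows was not tested.

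Density rose with the share of a window that genes covered, and then fell for windows wholly inside genes. SSB density was 23.7 in gene-free windows, 27.6 ± 1.65 in the 3054 windows less than 10% covered, 42.3 ± 0.370 in those covered by 25 to 50% and 55.0 ± 2.62 in those covered by 75 to 90% (SD, n = 12). The 4113 windows covered throughout, which lie inside genes, had 43.3 ± 1.48 SSB LPM and 45.0 ± 0.747 AP LPM. Against these windows inside genes, gene-free windows were lower too, with log2 ratios of -0.87 (SSBs) and -0.93 (AP sites; two-sided exact sign-flip test over tissues, p = 0.03125, adjusted p = 0.046875 over 3 tests for each). For this comparison the assays differed by 0.05 with an exact p of 0.125 over tissues. With the 12 DNA samples as units the value was the same and the exact p was 0.0386. The latter p treats the 2 samples of each tissue as independent.

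**Figure D2:**
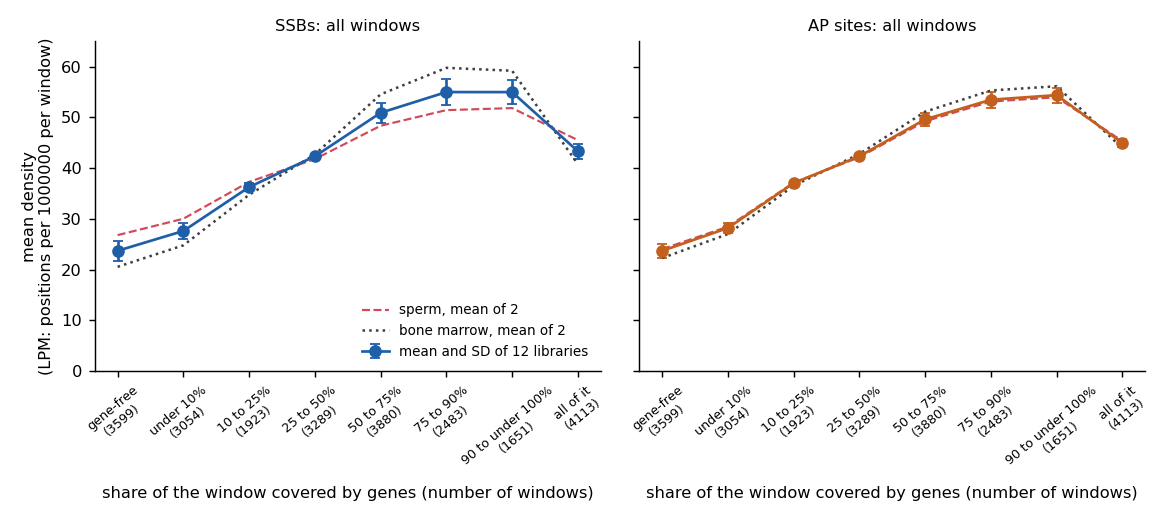
Mean density in LPM (vertical axis) by the share of the window that genes cover (horizontal axis, number of windows in brackets), for SSBs (left) and AP sites (right). Points with bars are the mean and SD of 12 libraries, the dashed line is the mean of 2 sperm libraries and the dotted line that of 2 bone marrow libraries; SSB density climbs from 23.7 without genes to 55.0 at 75 to 90% and is 43.3 at full coverage, and the SSB line of sperm is above that of bone marrow in gene-free windows and below it at 75 to 90%.

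Among gene-free windows, density fell with distance from the nearest gene. Distance was taken from the edge of the window. The 1799 windows less than 50 kb from a gene had 26.4 ± 1.90 SSB and 26.8 ± 1.26 AP LPM. At 100 to 200 kb (649 windows) the values were 20.5 ± 2.08 and 19.9 ± 1.69, and beyond 400 kb (41 windows) they were 15.1 ± 1.80 and 13.1 ± 1.37 (SD, n = 12). The density fell at every one of the steps in 24 of 24 libraries. The density beyond 400 kb was 0.571 ± 0.0415 of that under 50 kb for SSBs and 0.486 ± 0.0315 for AP sites.

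**Figure D3:**
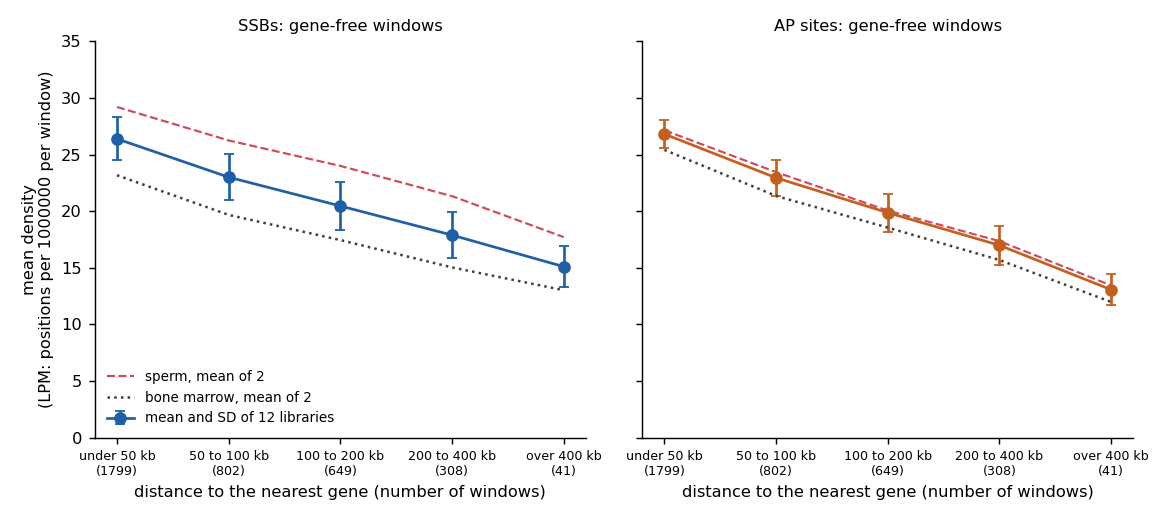
Mean density in LPM (vertical axis) of gene-free windows by distance to the nearest RefSeq gene (horizontal axis, number of windows in brackets), for SSBs (left) and AP sites (right). Points with bars are the mean and SD of 12 libraries, and the dashed and dotted lines the means of 2 sperm and 2 bone marrow libraries; SSB density falls from 26.4 to 15.1 and AP density from 26.8 to 13.1, with sperm above bone marrow throughout and farther above it for SSBs.

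Run length showed the same order. Single windows had 28.9 ± 1.83 SSB and 29.7 ± 1.13 AP LPM, windows in runs of 2 to 4 had 23.7 ± 2.02 and 23.6 ± 1.58, and windows in runs of 5 or more had 18.2 ± 2.02 and 17.4 ± 1.55 (SD, n = 12). The log2 ratio of long runs to single windows ran from -0.77 through a median of -0.68 to -0.52 over the SSB libraries and from -0.85 through -0.80 to -0.61 over the AP libraries. The mean was -0.67 for SSBs (1.59-fold lower) and -0.78 for AP sites (1.71-fold lower), each with an exact sign-flip p of 0.03125 and an adjusted p of 0.0375. AP sites thus fell more steeply than SSBs, by 0.11 on the log2 scale (exact p = 0.03125, adjusted p = 0.0375). The assay difference was above 0 in all 6 tissue means, from 0.02 ± 0.150 in liver, where the first animal went the other way (-0.081), to 0.22 ± 0.0623 in sperm (SD, n = 2). Without the second liver animal the difference was 0.09 with an exact p of 0.0938, and for windows that lack protein-coding genes alone it was 0.03 with an exact p of 0.562. In windows of 50 kb it was 0.07 (exact p = 0.0625), and from medians over windows 0.09 (exact p = 0.0938).

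Long runs had other neighbours than single windows. Of the 284 genes next to a run of 5 or more, 46.1% were pseudogenes, 25.7% long noncoding RNA (lncRNA) genes and 12.7% protein-coding. Of the 1957 neighbours of single windows 33.9% were pseudogenes, 33.8% lncRNA genes and 21.2% protein-coding. All 47042 autosomal genes included 8884 pseudogenes, 12408 lncRNA genes and 20665 protein-coding genes. Both sets of neighbours thus had a larger share of pseudogenes and a smaller share of protein-coding genes than all genes. Around the ends of long runs density was already lower just outside the run than farther out. Windows outside counted only where they contained a gene, so the steps rest on different sets of run ends. Windows at the third step outside (164 windows) had 27.0 SSB LPM and those next to the run (275) 21.3. The outermost windows of the run (284) had 18.6, and windows 4 or more steps inside (121) 15.8. For AP sites these values were 26.4, 21.0, 17.8 and 14.4.

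**Figure D4:**
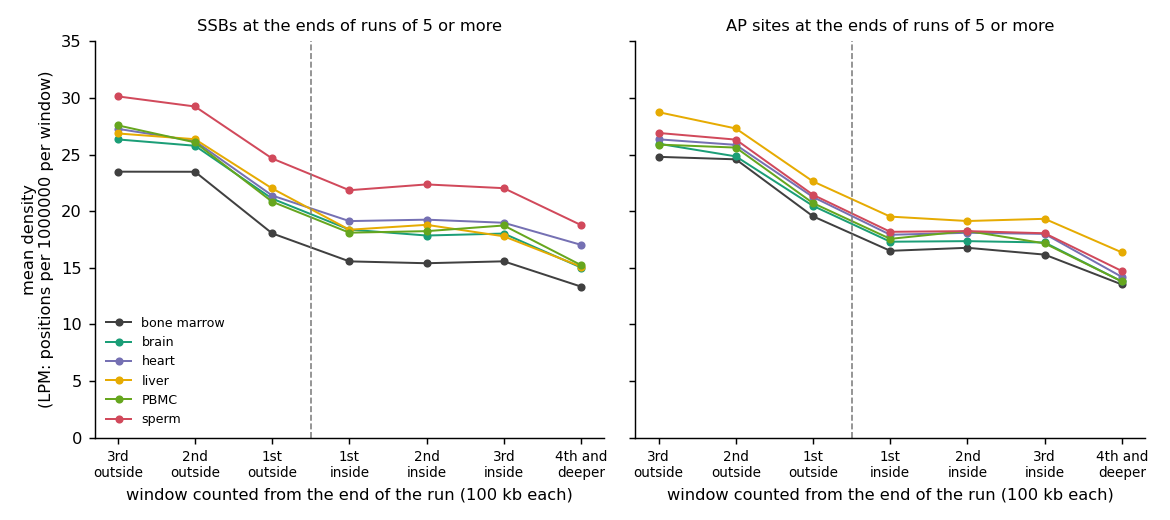
Mean density in LPM (vertical axis) of windows counted outwards and inwards from the ends of the 142 runs of 5 or more gene-free windows (horizontal axis, 100 kb per step; dashed line, end of the run), for SSBs (left) and AP sites (right). Each line is the mean of 2 libraries of a tissue. Windows outside are those that contain a gene, so fewer count at the third step outside (164) than at the first (275). The SSB lines fall from a mean of 27.0 at the third window outside to 18.6 at the first inside. They stay level to the third window inside (18.5). The deepest windows, which only the longer runs contain, have 15.8. Sperm is highest and bone marrow lowest for SSBs at each step.

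The longest gene-free run lay at chr4:29200001-30600000, 14 windows between the pseudogene Gm11919 and the lncRNA gene 4930556G01Rik. Its nearest protein-coding genes were Epha7, an ephrin receptor, and Map3k7, a kinase of inflammatory signalling. It had 18.0 ± 3.20 SSB LPM, from 11.8 in the second bone marrow library to 24.8 in the first sperm library, and 16.3 ± 2.74 AP LPM (SD, n = 12). The single windows of this run spanned 11.8 to 29.2 SSB LPM, so that it was not evenly low.

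Runs of 12 windows followed on 3 chromosomes. The genes named for them, and for the run of 11 windows below, are the nearest protein-coding genes, 196693 to 2178397 bases away. Pseudogenes or noncoding RNA genes lay closer on each side. The run at chr3:42000001-43200000, between D3Ertd751e and the protocadherin gene Pcdh10, was the densest of the 3, with 21.9 ± 3.43 SSB and 21.9 ± 2.10 AP LPM. The run at chr14:82200001-83400000, between Olfm4 and the protocadherin gene Pcdh17, had 13.7 ± 2.80 and 10.9 ± 1.44. The run at chr15:14500001-15700000, between the cadherin genes Cdh6 and Cdh9, had 13.1 ± 0.999 and 11.4 ± 1.82 (SD, n = 12). In this last run the tissues were close together for SSBs, from 11.7 in liver to 13.7 in bone marrow, and bone marrow was not the lowest. The run of 11 windows at chr5:46500001-47600000, between Lcorl and Slit2, a guidance ligand of growing axons, had 21.8 ± 3.38 SSB and 20.5 ± 2.63 AP LPM. Its SSB density was 16.3 and 16.9 in the bone marrow libraries and 27.4 and 27.4 in the sperm libraries, with the other 8 libraries between them.

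The densest gene-free windows stood alone between close genes. The window chr4:154700001-154800000, between Actrt2, an actin-related gene, and Ttc34, held 1414 positions over all libraries, the most of any gene-free window. It had from 69.4 through a median of 99.7 to 127 SSB LPM and from 80.1 through 99.6 to 116 AP LPM, more than the mean gene-containing window in all 24 libraries. The window chr8:121300001-121400000, between the predicted genes Gm33823 and Gm26747, had 98.8 ± 12.7 and 91.8 ± 15.6. The third for SSBs was chr1:92200001-92300000 beside Hdac4, a histone deacetylase gene, at 84.7 ± 13.4, and the third for AP sites chr5:33500001-33600000 between Nkx1-1, a homeobox gene, and Fam53a, at 89.6 ± 20.0 (SD, n = 12). At the other end, among windows with at least 25% of the median number of positions, chr3:16300001-16400000 beside Ythdf3, a reader of N6-methyladenosine, had 8.45 ± 4.87 SSB LPM, and chr5:12700001-12800000 beside Gm42580 had 7.44 ± 3.95 AP LPM. The next lowest for SSBs were the window beside Rpl21-ps14 on chromosome 8 (8.68 ± 4.07) and that between LOC115488950 and Gm31086 on chromosome 18 (8.78 ± 4.95), and for AP sites that beside Gm8599 on chromosome 3 (8.31 ± 3.08) and that between Gm35216 and Cntnap2, a neurexin family gene, on chromosome 6 (8.38 ± 4.04).

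The SSB deficit of gene-free windows differed between tissues. It was deepest in bone marrow, with log2 ratios of -1.19 and -1.04 in the 2 animals, and shallowest in sperm, with -0.70 and -0.70. Brain had -0.90 and -0.91, heart -0.86 and -0.86, liver -0.90 and -0.92, and PBMCs -0.90 and -0.86. The 4 tissues in the middle overlapped or lay close to each other, whereas both bone marrow libraries were below and both sperm libraries above all others. The F statistic between tissues was 17.8 (one-sided exact permutation test over the 10395 pairings of 12 libraries, p = 0.000962, adjusted p = 0.00289 over 6 tests). Without bone marrow F was 73.6 and without sperm 9.18, each with an exact p of 0.0106. F rested on the spread between the 2 bone marrow libraries, and it was 92.7 without the first and 165 without the second. With medians over windows in place of means the test did not pass (F = 4.54, exact permutation p = 0.0692). The median gene-free window held 4 to 22 positions in an SSB library, and the part of such coarse medians in this was not tested.

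In density, sperm had 26.8 and 26.8 SSB LPM and bone marrow 19.6 and 21.5. The mean of sperm was 1.30-fold that of bone marrow. The fold grew with run length, from 1.22 in single windows through 1.32 in runs of 2 to 4 to 1.42 in runs of 5 or more. Over gene-containing windows it was 0.978, which the scaling to library totals holds near 1, since these windows hold most positions. Windows inside genes also had more SSBs in sperm, by 1.12-fold, and windows covered by 75 to 90% had fewer, at 0.861. The ratio of long runs to single windows differed between tissues for SSBs as well: it was -0.76 ± 0.0100 in bone marrow and -0.54 ± 0.0391 in sperm (SD, n = 2), with F = 17.8 and an exact p of 0.000866 (adjusted p = 0.00289), but with medians over windows F was 0.985 (exact p = 0.511).

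**Figure D5:**
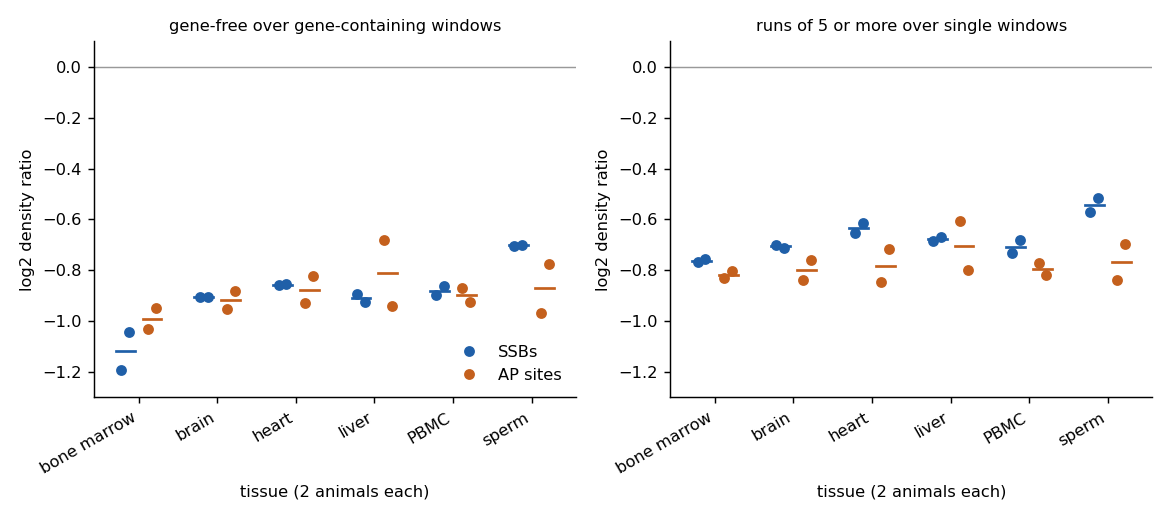
Log2 ratio of mean density (vertical axis) of gene-free over gene-containing windows (left panel) and of gene-free runs of 5 or more over single gene-free windows (right panel), by tissue (horizontal axis), for SSBs (blue) and AP sites (orange). Each point is 1 library and each short line the mean of 2; all points lie below the line at 0, SSB points run from -1.19 in bone marrow to -0.70 in sperm on the left, and the 2 AP points of liver and of sperm lie far apart.

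For AP sites no tissue difference was detected. The tissue means of the log2 ratio ran from -0.99 ± 0.0591 in bone marrow to -0.81 ± 0.182 in liver (SD, n = 2), and F was 0.659 (exact p = 0.675). The 2 animals lay far apart in liver (-0.68 and -0.94) and sperm (-0.97 and -0.78), and closer together in bone marrow (-1.03 and -0.95), brain (-0.95 and -0.88), heart (-0.93 and -0.82) and PBMCs (-0.87 and -0.92). The first liver AP library stood apart also in the share of its positions with a read count above 1, 0.931% against a median of 0.425% over the AP libraries, and in the spread between its gene-free windows, the lowest of all AP libraries (coefficient of variation beyond counting error 0.488), and the part of this in its ratio was not tested. The fold of sperm over bone marrow was 1.08 over gene-free windows for AP sites. The difference between SSBs and AP sites was -0.13 ± 0.0460 in bone marrow, 0.17 ± 0.134 in sperm and -0.10 ± 0.161 in liver (SD, n = 2), and its own tissue test did not pass (F = 2.30, exact p = 0.137). Without the second liver animal F was 4.30 with an exact p of 0.0455 before adjustment.

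Window by window the assays ranked gene-free windows alike. Spearman's rho between the SSB and AP totals was 0.951 over 3292 gene-free windows and 0.962 over 19915 gene-containing ones, as a description over windows that share libraries and depth. In edgeR's quasi-likelihood test with Benjamini-Hochberg adjustment over all windows, 12 of 3446 gene-free windows tested were higher in SSBs than in AP sites (0.348%), against a background of 1.53% of all windows tested. Those higher in AP sites numbered 24 (0.696%), against a background of 0.846%. With the DNA sample as a block the counts were 7 and 17, against 1.33% and 0.688% of all windows. DESeq2 called 1 and 2, against 0.714% and 0.212%. None of these shares of gene-free windows was above its background. The comparison is not like for like, since sparser windows are harder to call. Summed over 24 libraries the median gene-free window held 284 positions, against 566 over all windows. The part of this in the shares was not tested. The median log2 ratio of SSBs to AP sites was -0.01 in single windows, 0.04 in runs of 2 to 4 and 0.11 in runs of 5 or more, beside 0.01 over all windows. Leaving out sperm brought the median over gene-free windows from 0.04 to 0.0047. With 1 sample left out it was 0.01 to 0.06. It was -0.04 over the 1582 gene-free windows tested after thinning to equal depth, beside 0.0018 over all windows. Over the 8151 windows without protein-coding genes it was -0.0026.

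The window with the smallest p was chr18:82100001-82200000, in a run of 3 windows between Mir5127 and Gm17383. It had from 41.4 through a median of 71.7 to 93.3 SSB LPM against 33.2 through 43.2 to 58.6 AP LPM, a log2 difference of 0.73 ± 0.111 (SE, edgeR, adjusted p = 2.21e-07). It stayed called under all 22 alternatives, with adjusted p up to 0.00668. The other 2 with the smallest p in this direction, chr5:12700001-12800000 beside Gm42580 (adjusted p = 0.0150, edgeR) and chr4:80000001-80100000, in a run of 11 windows between Gm11263 and Gm32658 (adjusted p = 0.0172, edgeR), were sparse, with 1 to 17 positions in an SSB library. The first lost its call without the first bone marrow animal, and the second without either heart animal or the first sperm animal, with adjusted p up to 0.169 and 0.0656 over the alternatives.

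In the opposite direction the leading window chr15:88100001-88200000, between Gm35772 and Gm41376, had 56.7 ± 16.1 SSB and 79.0 ± 7.81 AP LPM (SD, n = 12), a log2 difference of -0.50 ± 0.108 (SE, edgeR, adjusted p = 0.00154, and 0.223 after thinning, the only 1 of 22 alternatives that ended the call). The window chr13:35300001-35400000, between Gm22674 and Cdyl, a chromodomain gene, had 21.9 ± 8.16 and 34.5 ± 5.82 (edgeR, adjusted p = 0.00521, 0.736 with libraries thinned to equal depth and 0.0517 without the first heart animal). The window chr10:84200001-84300000 beside Gm5425 had 33.9 ± 10.6 and 50.9 ± 9.05 (edgeR, adjusted p = 0.00725, and 0.0829 after thinning).

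Across tissues, 6 of 3273 gene-free windows tested differed in SSBs (0.183%, edgeR, adjusted p under 0.05), against a background of 0.485% of all windows. At an unadjusted p under 0.05 there were 267 (8.16%), against 11% of all windows. Here too gene-free windows were sparser than the background, and the part of this in the shares was not tested. Without the first bone marrow animal the count of 6 was 0, and over all windows the calls fell from 112 of 23071 to 3 of 23129. DESeq2 called 0, against 0.00433% of all windows, and at an unadjusted p under 0.05 it gave 14 (0.428%, against 0.841%). Of the 6, sperm was highest in 4. Over all 3273 windows, called or not, sperm was the highest tissue in 1186 (36.2%) and bone marrow the lowest in 1206 (36.8%), whereas PBMCs were highest in 605 and lowest in 603. Tissue ranks were not counted over gene-containing windows, so they cannot be called particular to gene-free windows. By gene coverage, the SSB fold of sperm over bone marrow there ran from 1.21 (under 10% covered) to 0.861 (75 to 90%). For AP sites the same test called 0 of 3502 gene-free windows (background 0% of all windows), with 128 at an unadjusted p under 0.05 (3.66%, against 4.13%). DESeq2 also called 0, with 3 at an unadjusted p under 0.05 (0.0857%, against 0.105%).

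The gene-free window with the smallest p across tissues for SSBs was chr12:97000001-97100000 between Gm6863 and Gm40552. It had 46.1 ± 20.4 SSB LPM in heart and 38.0 ± 12.8 in brain, against 7.51 ± 1.37 in bone marrow, 13.8 ± 0.722 in sperm, 17.8 ± 3.01 in liver and 19.9 ± 9.61 in PBMCs (SD, n = 2; edgeR, adjusted p = 0.00635). Its AP density was 16.6 ± 5.23 (SD, n = 12). The call was lost with DESeq2, after thinning (edgeR, adjusted p = 0.351) and without bone marrow. It was also lost without the first bone marrow animal and without the first heart animal. Next came chr4:68600001-68700000, in a run of 3 windows on the side of Brinp1, a gene expressed in the nervous system. It had 60.7 ± 4.66 SSB LPM in sperm, and means from 16.8 in heart to 21.4 in PBMCs in the other tissues (edgeR, adjusted p = 0.0152, and 0.458 and 0.125 without the first and the second sperm animal). DESeq2 did not call it, nor did edgeR after thinning (adjusted p = 0.312), without bone marrow or without the first bone marrow animal. The call held in 15 of 22 alternatives. AP sites showed no such height in sperm there, with 21.1 ± 2.49 beside 21.3 ± 4.25 over all 12 AP libraries. Sperm was also highest at chr16:54000001-54100000 beside Gm5487, with 28.1 ± 9.29 SSB LPM against 1.09 ± 1.54 in bone marrow (SD, n = 2; edgeR, adjusted p = 0.0348). This window held 0 to 15 positions in a library, and its call was lost in 7 of 17 alternatives. For AP sites the smallest p-values belonged to chr3:46800001-46900000 beside Mir6379, chr10:113000001-113100000 between Gm22507 and Gm40765, and chr17:76600001-76700000 between Gm16391 and Gm18366, with adjusted p of 0.676, 0.754 and 0.999 in edgeR.

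Positions in gene-free windows differed from those elsewhere in other ways that the choice of windows did not use. Fewer of them recurred at the same base and strand in another library of the assay: 0.822% ± 0.0804 against 1.12% ± 0.106 for SSBs and 2.60% ± 0.228 against 2.96% ± 0.183 for AP sites, lower in 12 of 12 libraries each (SD, n = 12; two-sided exact sign-flip test over tissues, p = 0.03125, adjusted p = 0.0375 over 6 tests). With all libraries thinned to 225011 positions the shares were 0.410% against 0.582% and 0.802% against 0.925%. A lower density by itself leaves fewer positions to coincide, and the part of density in this difference was not tested. Fewer positions had a read count above 1, 0.440% against 0.503% for SSBs and 0.399% against 0.465% for AP sites (exact p = 0.03125, adjusted p = 0.0375 for each). The SSB difference of -0.063 percentage points was -0.059 without the first bone marrow animal and -0.056 without the first PBMC animal, and its exact p was then 0.0625.

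AP sites leaned to the plus strand of the reference, and more so in gene-free windows. The share on the plus strand was 51.4% ± 0.164 there and 50.9% ± 0.105 in gene-containing windows, higher in 12 of 12 libraries (SD, n = 12; exact sign-flip p = 0.03125, adjusted p = 0.0375). For SSBs the shares were 50.5% ± 0.313 and 50.4% ± 0.135 (exact p = 0.188). The spread between gene-free windows beyond counting error was a coefficient of variation of 0.525 ± 0.0354 for SSBs and 0.601 ± 0.0469 for AP sites, beside 0.525 ± 0.0544 and 0.515 ± 0.0354 between gene-containing windows (SD, n = 12).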

How the data were processed

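SSB and AP site positions of 24 libraries were analysed; 12 RNA samples were not analysed here. The deposited files list each lesion nucleotide with its strand and a read count, a whole number. The submitters' processing notes name the builds mm10 and GRCm38 and the tool RSEM 1.2.28 without roles, and the aligner and filters were not given in the sources used here. A position was counted once. Windows were compared with RefSeq gene spans of GRCm38.p6, a list that may be incomplete, and density was not corrected for mappability or base composition.

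Ratios were tested by two-sided exact sign-flip tests over 6 tissue means and tissue differences by F, permuted over all 10395 pairings of libraries, with Benjamini-Hochberg adjustment within families of 6 tests (3 for windows inside genes). Windows with a mean of at least 5 positions per library were tested with edgeR 4.0.16 (R 4.3.3, TMM, quasi-likelihood), with DESeq2 1.42.0 as an alternative. Other alternatives were summed read counts, thinning to 225011 positions, windows without protein-coding genes, 50 kb windows, exclusion of sparse windows or of 5 Mb at chromosome ends, medians, other size factors, and omission of a sample or tissue. Scripts were tested on simulated data. The labels pair the assays by sample. Deviations of windows from group means correlated between -0.012 and 0.014 within these pairs, and between -0.066 and 0.059 within same-numbered samples of different tissues.

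The windows and comparisons were chosen with earlier results of these data known. Comparisons with windows inside genes, and tissue tests of the run ratio and of the assay difference, were added after the data were seen. Named were the 5 longest runs, the 3 densest and 3 sparsest windows per assay (sparsest among those with at least 25% of the median total) and the 3 of smallest p in each window test, in each direction for the assays.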

Additional observations from a re-analysis of the deposited data

Results flagged for a closer look

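The fall in density from single gene-free windows to runs of 5 or more differed between the assays, by 0.11 on the log2 scale (SSBs minus AP sites; two-sided exact sign-flip test over 6 tissue means, p = 0.03125), with the smaller fall for SSBs in all 6 tissue means, though not in the first liver animal (-0.081). It was flagged because 2 assays on the same DNA differed under the same contrast.

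The ratio of gene-free to gene-containing density differed between tissues for SSBs (F = 17.8, exact permutation p = 0.000962), with bone marrow lowest and sperm highest. So did the ratio of long runs to single windows (F = 17.8, exact permutation p = 0.000866). Both were flagged because the same contrast gave different values in different tissues. For AP sites the tissue tests did not pass, and the tests of whether the 2 assays differed in this respect gave exact p-values of 0.137 and 0.312.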

How the results depend on the processing

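The density ratio and the run ratio kept their sign for both assays under every alternative run, and their side of the threshold wherever 6 tissues were tested (with a tissue left out no test was run, as 5 tissues cannot reach the threshold), from -1.03 to -0.72 (SSBs) and -1.11 to -0.68 (AP sites) for the density ratio. The run ratio of SSBs moved to -0.70 without sperm. The near-zero assay difference in the density ratio was 0.00032 after thinning, 0.079 with medians and 0.024 without bone marrow, and ran from -0.020 to 0.018 when 1 sample was left out. The assay difference in the run ratio no longer passed in windows without protein-coding genes (0.029), in 50 kb windows (0.071) and with medians (0.093); leaving out 1 sample gave 0.088 to 0.123, and it failed without the second liver animal. Medians also ended the SSB tissue differences, at F = 4.54 for the density ratio and F = 0.985 for the run ratio; leaving out 1 sample gave F from 11.4 to 165 and from 12.5 to 23.1. The tissue tests of the assay difference ran from 1.31 to 4.30 and from 0.728 to 4.32, and passed only without the second liver animal. The replicate block pairs the assays by DNA sample. For the assay difference against windows inside genes it took DNA samples in place of tissue means as units. The value was the same (0.052, and 0.039 to 0.065 with 1 sample left out). The exact sign-flip p moved past the threshold, from 0.125 to 0.0386. The latter p treats samples of the same tissue as independent, so the move cannot be credited to the pairing. The block changed no other call of these ratios.

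Counts of single windows were less stable, and the cause was not tested. Gene-free windows higher in SSBs numbered 12 of 3446, beside 360 of all 23531 windows tested. They numbered 1 with DESeq2 (168 of all windows), 7 with the replicate block (313) and 2 of 1582 after thinning (63 of 18706). Without bone marrow they were 2 of 3471 (120 of 23593). Without 1 sample they were 3 to 11 (203 to 424 of all windows), fewest without the first heart animal. Of the 8151 windows without protein-coding genes, a set that includes windows with other genes, 26 were called. Those higher in AP sites numbered 24 of 3446, beside 199 of all 23531. They numbered 2 with DESeq2 (50 of all windows), 1 of 1582 after thinning (15 of 18706) and 10 of 3471 without bone marrow (79 of 23593). Without 1 sample they were 7 to 27 (84 to 195 of all windows), fewest without the second heart animal. Of the 8151 windows without protein-coding genes 68 were called. Windows differing across tissues in SSBs numbered 6 of 3273, beside 112 of all 23071. They numbered 0 with DESeq2 (1 of all windows) and 0 of 1628 after thinning (4 of 18781). Without sperm they were 2 of 3324 (34 of 23188) and without bone marrow 0 of 3351 (1 of 23244). Without 1 sample they were 0 to 8 (3 to 126 of all windows). Of the 7857 windows without protein-coding genes 10 were called. Thinning to 225011 positions left 1582 gene-free windows above the minimum in the assay test, which limits what it could call.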

Other observations

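Chromosome X was not among the autosomal windows. Its 324 gene-free windows had a density below that of its gene-containing windows in 12 of 12 SSB and 12 of 12 AP libraries, with log2 ratios of -1.13 to -0.80 and -1.11 to -0.78. SSB density in these windows was 5.04 ± 0.376 LPM in sperm (SD, n = 2) and between 5.28 and 6.72 in the other tissues. Relative to autosomal gene-free windows this was 0.188 in sperm, against 0.251 in brain to 0.278 in heart, while for AP sites sperm had 0.236 within a range of 0.232 in bone marrow to 0.251 in PBMCs. All animals were male, and this difference was not tested.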
